A study of Mus musculus with 15 samples.

Results

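The 9 genes of sterol and lipid efflux examined here are the ATP-binding cassette transporters *Abca1*, *Abca6*, *Abca8a*, *Abca8b*, *Abca9* and *Abcg1*, the lipoprotein *Apoe*, and *Nr1h3* and *Nr1h2*, which encode the liver X receptors LXRα and LXRβ. They were chosen by name with earlier results of these data known, as 9 of 26509 genes. RNA-seq counts of 2 experiments were used, one of cultured mouse RPE cells (mRPE) with 20910 genes and one of mouse RPE/choroid with 25038 genes. All 9 members have a row in the RPE/choroid data and 7 in the mRPE data, where *Abca8a* and *Abcg1* were not analysed here. Every member with a row passed the count filter of at least 5 counts in at least 3 libraries.

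The mRPE cells are RPE cells pooled from C57/BL6J mice and immortalized with HPV E6/E7. The 4 WT libraries (8995-SB-1, 9262-SB-1, 9262-SB-2 and 9262-SB-3) were compared with 2 *Prom1*-KO lines, made by stable Cas9 expression and a guide to exon 5 of *Prom1*. KO22 is represented by 8995-SB-2 and the pair 9262-SB-4 and 9262-SB-5 (n = 3), and KO26 by 8995-SB-3 together with 9262-SB-6 (n = 2), so each genotype effect rests on a single line. The methods describe control cells with Cas9 and a scrambled guide for the check of genomic DNA, without tying them to the WT libraries. The RPE/choroid libraries are 3 WT (12965-SB-01 to 12965-SB-03) and 3 *Prom1*-KO (12965-SB-04 to 12965-SB-06) from mice with floxed *Prom1* and tamoxifen-induced RPE65-Cre. The labels give neither the age of these mice nor whether WT mice carried Cre or received tamoxifen. The study calls the mRPE libraries biological replicates, without saying how their cultures were separated, so p-values measure the spread between libraries, which may in part be technical. *Prom1* has no row in the mRPE data and was not analysed there, so the knockout was not checked in those counts. The study itself reports loss of the protein by Western blot and less *Prom1* transcript by qPCR in both of its KO lines.

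ABCA1 and ABCG1 move cholesterol and phospholipid out of the cell, ABCA1 onto lipid-poor apolipoproteins and ABCG1 onto formed particles. Apolipoprotein E is one acceptor of this lipid and carries it between cells. The LXRs, bound by oxysterols and paired with RXR, switch on *Abca1*, *Abcg1* and *Apoe*. In the eye, the RPE takes up lipid-rich photoreceptor outer segments daily and exports lipid through this pathway. ABCA6, ABCA8 and ABCA9 form a separate subfamily whose substrates are less well known.

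The total count was 8076188 to 27537863 in the mRPE libraries and 48154444 to 61766179 in RPE/choroid. In RPE/choroid, mitochondrially encoded genes took 64.9% to 71.3% of the counts, and 84.2% in 12965-SB-06. Counts of replicate libraries differed by more than sampling noise in all pairs, with a chi-square per degree of freedom of 4.8 to 247. Of 13 RPE markers, 4 have a row in mRPE, at a summed 11.8 to 17.4 CPM (counts scaled to equal library size) in WT, and *Rpe65* and *Rlbp1* are not among the 4. Fibroblast markers summed to 13520 to 18075 CPM in WT mRPE, 5581 to 8684 in KO22 and 20051 to 22235 in KO26. Endothelial markers, 5 of 9 with a row and *Cdh5* and *Cldn5* not among them, summed to 153 to 236 CPM in WT, 3.49 to 5.4 in KO22 and 56.7 to 74.1 in KO26. The 8 pericyte and smooth muscle markers summed to 969 to 2053, 296 to 411 and 1246 to 2295 CPM. Most of the endothelial sum in WT and KO26 was *Kdr*, at a mean 176.9 and 63.8 CPM. The part of these other cell type markers in the results was not tested.

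Of the transporters, 4 lie side by side on the minus strand of chromosome 11 (GRCm39), with *Abca5* as the next gene. *Abca8b* spans 109823016 to 109886691, *Abca8a* 109916460 to 109986869, *Abca9* 109989424 to 110059429, *Abca6* 110064716 to 110143249 and *Abca5* 110160195 to 110228542. The others are apart. *Abca1* lies on chromosome 4 (53030787 to 53159900, minus strand), *Nr1h3* on chromosome 2 (91014394 to 91033417, minus strand) and *Abcg1* on chromosome 17 (31276649 to 31336969, plus strand). *Apoe* and *Nr1h2* are both on the minus strand of chromosome 7, at 19430034 to 19434947 and 44199036 to 44203406. Aligned over their longest open reading frames, *Abca8a* and *Abca8b* were the most alike of the cluster, with 74.8% identical bases and 105 shared runs of 50 bases. *Abca6* and *Abca9* share 13 such runs, and *Abca9* shares none with either *Abca8* gene, against which it has 71.1% identical bases.

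Promoter windows of RefSeq (GRCm38.p6, 250 bases before to 50 after a gene's start) matched 7 of the 9 members. *Abca6* and *Abcg1* were not matched. The LXR/RXR recognition element is a direct repeat of a 6-base site spaced by 4 bases. It was searched on both strands as NGGTNA, 4 bases of any kind and NGGTNA again, and 0.718% of the 32851 windows hold it. Of the members' windows, *Abca1* alone holds it, at 67 bases before the start and on the strand opposite to the gene. Sequence outside the windows was not searched, so this cannot show whether other members hold such an element elsewhere. CACGTG, held by 7.15% of windows, lies 147 bases before the start of *Abca1*, 136 before that of *Abca8a* and 18 past that of *Abca8b*. The bases just before the start are printed for *Abca1*, as the member with this repeat. They are also printed for *Abca9*, *Abca8b* and *Abca5*, the cluster genes with both a window and a row in mRPE. They lie at chr4:53159896-53160055, chr11:110168154-110168273, chr11:109995846-109995965 and chr11:110337717-110337836, all on the minus strand. They are written 5′ to 3′ in the direction of the gene. Capitals mark CACGTG and the spaced repeat.
Abca1: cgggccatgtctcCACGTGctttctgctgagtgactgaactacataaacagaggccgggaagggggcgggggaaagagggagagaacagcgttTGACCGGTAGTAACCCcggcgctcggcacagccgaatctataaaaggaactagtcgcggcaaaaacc
Abca9: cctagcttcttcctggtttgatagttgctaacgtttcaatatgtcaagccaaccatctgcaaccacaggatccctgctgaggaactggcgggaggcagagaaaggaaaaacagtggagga
Abca8b: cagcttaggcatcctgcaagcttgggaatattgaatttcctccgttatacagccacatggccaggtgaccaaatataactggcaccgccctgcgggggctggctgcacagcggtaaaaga
Abca5: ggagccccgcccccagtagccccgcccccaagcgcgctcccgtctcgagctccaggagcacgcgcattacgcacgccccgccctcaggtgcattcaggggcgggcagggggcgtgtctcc
In the *Abca1* run both marked motifs occur, CACGTG first and the spaced repeat nearer to the gene. The 3 cluster runs, which end at the start and so leave out the CACGTG of *Abca8b*, hold neither, and their GC content was 49.2% for *Abca9*, 53.3% for *Abca8b* and 75% for *Abca5*. A match in these letters is a description and was not tested for binding.

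Levels between genes were compared per kilobase of annotated exons on a CPM scale of nuclear-encoded counts. In WT mRPE, *Abca1* stood highest (16.2 ± 5.75, SD, n = 4), followed by *Abca9* (10.7 ± 2.8) and *Nr1h2* (6.14 ± 0.634). The ranges of *Abca1* and *Abca9* overlapped, as did those of *Abca9* and *Nr1h2*. Below a gap came *Apoe* (1.32 ± 0.681), *Abca8b* (1.02 ± 0.357), *Abca6* (0.766 ± 0.242) and *Nr1h3* (0.622 ± 0.193), each overlapping its neighbour. LXRβ was thus the more abundant LXR transcript in mRPE, as it was in RPE/choroid, where *Nr1h2* was at 9.52 ± 0.916 and *Nr1h3* at 0.76 ± 0.227 (n = 3 WT libraries). In WT RPE/choroid *Apoe* was far above the other members at 270 ± 67.5. Next were *Abca1* (11.5 ± 0.825), *Nr1h2*, *Abca8a* (9.16 ± 2.92), *Abca9* (4.9 ± 1.51), *Abca8b* (4.08 ± 1.71) and *Abcg1* (2.79 ± 0.321), with *Abca6* at 1.27 ± 0.592. With the longest transcript as length, *Nr1h2* ranked above *Abca1*. From *Nr1h2* down to *Abcg1* the ranges of neighbours overlapped, and so did those of *Abca6* and *Nr1h3*. Of the 7 members with both values, the mean of *Apoe* differed most between tissue and cells, at 205 times its WT mRPE level. *Abca9* was 2.18 times higher in the cells. The 2 experiments were prepared and normalized separately, so these ratios carry no test.

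**Figure D1:**
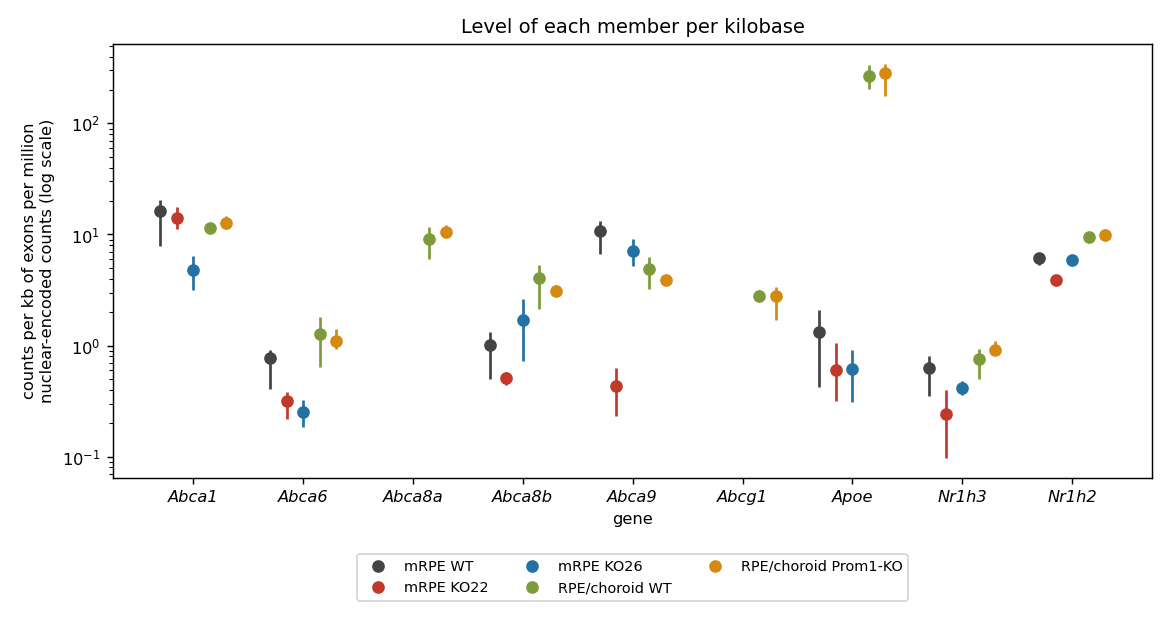
Level of each member in CPM of nuclear-encoded counts per kilobase of exons (log axis), as the group mean (points) with the range over libraries (lines), for 3 mRPE groups and 2 RPE/choroid groups. *Apoe* is the highest member in RPE/choroid and sits with the low members in mRPE, and *Abca9* in KO22 lies apart from its WT and KO26 levels.

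KO22 was compared with WT to ask which members differ in cells of this *Prom1*-KO line. *Abca9* fell, and it was the 1 member of 7 past both limits (adjusted p under 0.05 and absolute log2 fold change over 1.2, edgeR's quasi-likelihood test with the library prefix as a term). Over all 20455 genes tested, 25.2% passed both, so 1 of 7 is not above the background. In CPM on the scale of TMM normalization, *Abca9* was at 61.2, 93.6, 110.5 and 90.1 in the 4 WT libraries and at 2.16, 5.83 and 3.88 in the 3 KO22 libraries. The groups did not overlap, and the lowest WT library was over the highest KO22 library by more than the spread within either group. The log2 fold change was -4.43 ± 0.192 (SE), a 21.5-fold lower level (edgeR adjusted p = 4.89e-07). The library names carry the prefix 8995 or 9262, whose meaning the labels do not give, and within each prefix the log2 ratio of *Abca9* was -4.53 in 8995 and -4.22 in 9262. In all 7 fits that left out a library *Abca9* passed both limits. The fibroblast, endothelial and pericyte marker sums were also lower in each KO22 library than in each WT library. Single markers did not all follow these sums. Past both limits, 6 of 9 fibroblast markers tested fell and 0 rose. Of 5 endothelial markers, 2 fell and *Plvap* rose. Of 7 pericyte and smooth muscle markers, 4 fell while *Cspg4* and *Cnn1* rose. Over all genes, 11.4% were higher and 13.8% lower. The part of these markers in the fall of *Abca9* was not tested.

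The other members of the chromosome 11 cluster moved less. *Abca6* was at 3.38, 6.58, 6.19 and 6.6 CPM in WT and at 2.94, 1.78 and 3.1 CPM in KO22. All KO22 libraries were below all WT libraries, but 8995-SB-2 and 8995-SB-1 were close, and the value of -1.07 ± 0.307 on the log2 scale (edgeR adjusted p = 0.0151) missed the fold limit. It passed both limits without 8995-SB-1 (-1.47), 8995-SB-2 (-1.45) or 9262-SB-5 (-1.21), and neither limit without 9262-SB-4 (-0.75, edgeR adjusted p = 0.0745). *Abca8b* was at 4.17, 9.6, 8.74 and 7.97 CPM in WT and at 4.93, 3.66 and 4.27 CPM in KO22, so the WT library 8995-SB-1 lay within the KO22 range. Its log2 fold change was -0.75 ± 0.282 (edgeR adjusted p = 0.0486), and the log2 ratio was 0.22 within prefix 8995 and -1.05 within 9262. *Abca5*, the outermost gene of the cluster and no member of the set, rose. It was at 7.43, 7.88, 9.33 and 7.25 CPM in WT and at 44.8, 16.6 and 19.9 CPM in KO22, a log2 difference of 1.6 ± 0.267 (edgeR adjusted p = 0.000829). It fell just short of the fold limit without either library of prefix 8995 (1.15 and 1.18). The 4 cluster genes with a row thus differed in direction and size in the same libraries.

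Genes further out were counted for the surroundings of the cluster. Of the 16 other genes tested within 1 Mb of it, 3 rose in KO22 (*Rgs9*, *Kcnj16* and *Kcnj2*) and 3 fell (*Axin2*, *Gm11670* and *Arsg*). Over all genes tested, 11.4% rose and 13.8% fell past both limits. Low counts limit *Rgs9* (0 to 4 in WT), *Kcnj16* (1 to 5 in WT) and *Gm11670* (1 to 11 in KO22). The log2 fold changes of the 16 genes were -2.19 to 3.25 with a median of -0.07, beside a median of -0.03 over all genes tested. The nearest tested protein-coding genes on either side, *Fam20a* (-0.88, edgeR adjusted p = 0.0254) and *Map2k6* (1.15, edgeR adjusted p = 0.000217), missed the fold limit. *Abca9* had the lowest value of the 20 genes plotted.

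**Figure D2:**
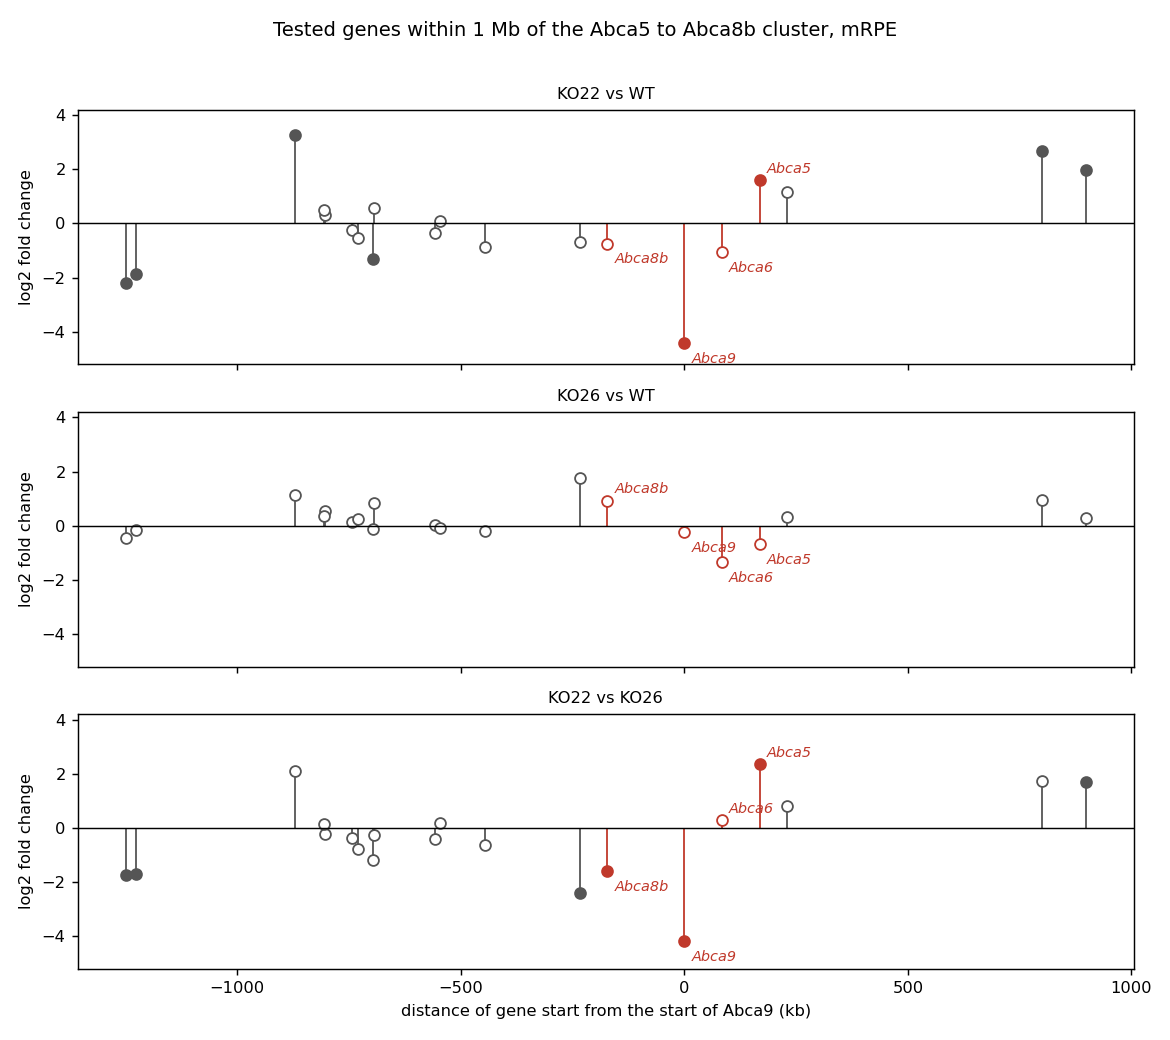
Log2 fold change (vertical axis) of the tested genes within 1 Mb of the *Abca5* to *Abca8b* cluster against the distance of each gene's start from that of *Abca9* in kb, for KO22 against WT, KO26 against WT and KO22 against KO26. Red marks the 4 cluster genes tested and grey the 16 others, filled where both limits were passed. *Abca9* stands at -4.43 in KO22 and -0.25 in KO26, between genes that moved less or in the other direction.

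Both LXR receptors were lower in KO22 by the adjusted p, without reaching the fold limit. *Nr1h2* was at 15.8, 15.6, 17.7 and 17.4 CPM in WT and at 10.6, 12.3 and 11.8 CPM in KO22. The groups did not overlap and the libraries of a group lay close together, which gave -0.51 ± 0.134 on the log2 scale (edgeR adjusted p = 0.00997). *Nr1h3* was at 1.51, 2.47, 2.75 and 3.01 CPM in WT and at 0.43, 1.74 and 1.01 CPM in KO22. These values rest on 28 to 42 counts in WT and 5 to 36 in KO22, and the log2 fold change was -1.13 ± 0.314 (edgeR adjusted p = 0.0134). With *Abca6*, *Abca8b* and *Abca9*, 5 of the 7 members tested were lower in KO22 by the adjusted p alone and none higher. Over all genes tested, 26.1% were lower by the same rule. The median log2 fold change of the 7 members was -0.94, beside -0.03 over all genes. *Abca6*, *Abca8b* and *Abca9* are neighbours, and the members were chosen with earlier results known. The count and the median are therefore a description and no test of the set. *Nr1h3* overlaps *Gm13783* on its own strand and *Acp2* head to head, so reads in the shared stretch are uncertain. *Apoe* likewise overlaps the antisense lncRNA *Gm71725*. Antisense lncRNAs also overlap *Abca9* (*Gm72079*, *Gm72536* and *Gm74346*), *Abca6* (*Gm72599*) and *Abca5* (*Gm39445*), so the same uncertainty holds for these genes.

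*Abca1* and *Apoe*, the LXR targets of the set with rows in mRPE, did not pass in KO22, and their values split by library prefix. *Abca1* was at 83.1, 153.8, 197.6 and 178.8 CPM in WT and at 189.4, 142.1 and 118.3 CPM in KO22. The KO22 library of prefix 8995 was above its WT counterpart, while both KO22 libraries of prefix 9262 were below all 3 WT libraries of that prefix. The log2 fold change over both prefixes was 0.03 ± 0.284 (95% interval -0.6 to 0.67, edgeR adjusted p = 0.929). Within the prefixes the log2 ratio was 1.18 in 8995, with 1 library a group, and -0.44 in 9262. With the 9262 libraries alone, the log2 fold change was -0.43 (edgeR adjusted p = 0.00174).

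*Apoe* followed the same split at a much lower level. It was at 1.47, 3.91, 4.71 and 6.24 CPM in WT and at 3.72, 1.11 and 1.47 CPM in KO22, from 37 to 87 and 19 to 43 counts. The WT library 8995-SB-1 lay within the KO22 range and the KO22 library 8995-SB-2 close to the WT libraries of 9262. The log2 fold change was -0.94 ± 0.591 (95% interval -2.27 to 0.38, edgeR adjusted p = 0.206). The log2 ratio was 1.1 within prefix 8995 and -1.59 within 9262. Without 8995-SB-2, it was -1.96 (edgeR adjusted p = 5.32e-06), and without 8995-SB-1, -1.98 (edgeR adjusted p = 5.43e-06), each past both limits. The result for *Apoe* in KO22 therefore differs with the prefix that is read.

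**Figure D3:**
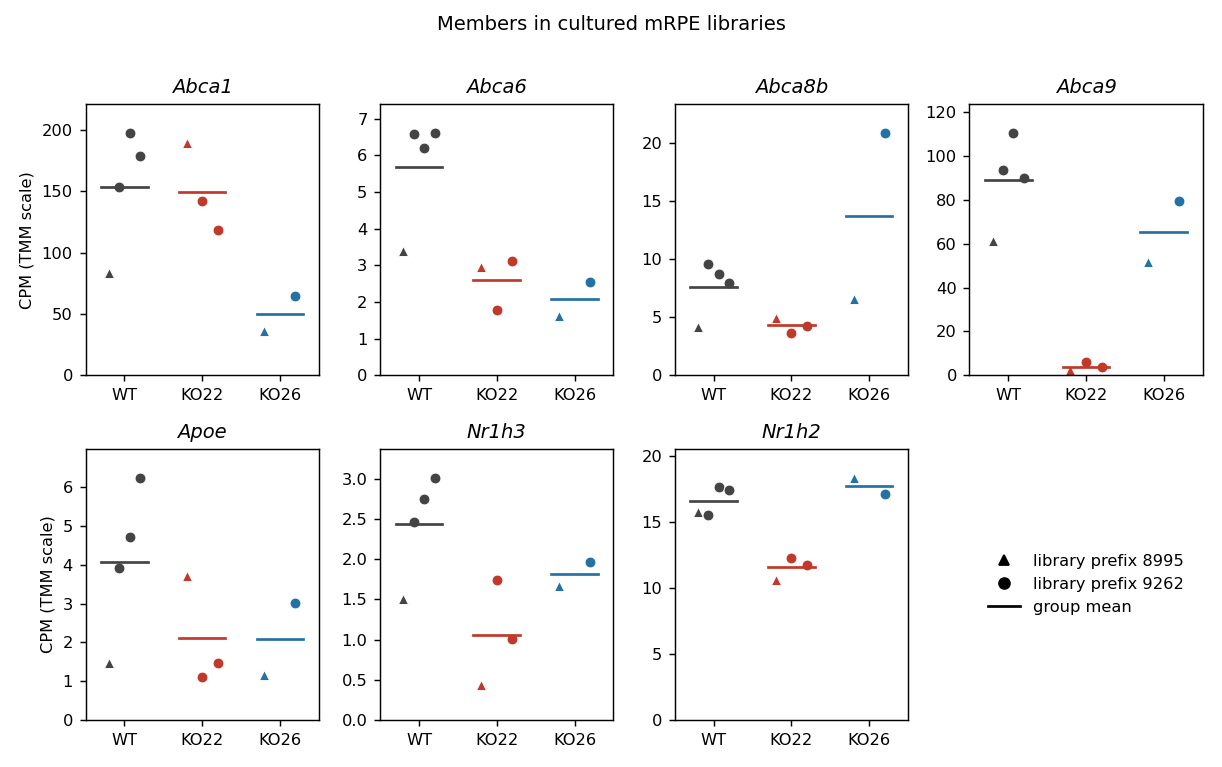
CPM on the TMM scale of the 7 members in each mRPE library, by group, with the library prefix as the marker (triangles 8995, circles 9262) and a line at the group mean. The 3 KO22 libraries are near 0 for *Abca9*, and for *Abca1* and *Apoe* the KO22 triangle lies above the WT triangle while the KO22 circles lie below the WT circles.

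KO26, the other *Prom1*-KO line, was tested against WT in a fit over all 9 mRPE libraries. Its libraries, 8995-SB-3 and 9262-SB-6, are those that the study removed as outliers, so its own results do not rest on them. *Abca1* fell, the 1 member of 7 past both limits, beside 1.92% of 20737 genes. It was at 36.2 and 64.5 CPM in KO26, below each WT library, a log2 difference of -1.51 ± 0.339 (edgeR adjusted p = 0.0381). The log2 ratio was -1.19 within prefix 8995 and -1.44 within 9262. The call was lost without any 1 of 8995-SB-3, 9262-SB-6, 9262-SB-1, 9262-SB-2, 9262-SB-3 or 9262-SB-4 (edgeR adjusted p 0.0603 to 0.268), and with no batch term (0.0664). The log2 fold change stayed between -1.88 and -1.28 in every fit tried.

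The cluster genes in KO26 did not repeat the KO22 values. *Abca9* was at 51.5 and 79.6 CPM in KO26, a log2 difference of -0.25 ± 0.182 (95% interval -0.65 to 0.15, edgeR adjusted p = 0.467). *Abca6* was at 1.62 and 2.54 CPM, below all WT libraries, and its log2 fold change of -1.33 ± 0.369 did not pass (edgeR adjusted p = 0.0783). It passed both limits without 8995-SB-2 (-1.2, edgeR adjusted p = 0.00734) and with the WT and KO26 libraries alone (-1.23, edgeR adjusted p = 0.0039). *Abca8b* was at 6.54 and 20.8 CPM, above the WT library of the same prefix in each case (0.93 ± 0.342, edgeR adjusted p = 0.167). *Nr1h2* at 18.4 and 17.1 CPM, *Nr1h3* at 1.67 and 1.97 CPM and *Apoe* at 1.16 and 3.01 CPM did not pass, with log2 fold changes of 0.12, -0.12 and -0.92.

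The difference between the lines was itself tested, in the same fit and so with the KO26 libraries that the study removed. Of 7 members, 3 passed both limits, beside 18.3% of genes, and 4 of 7 passed the adjusted p alone, beside 34.4%. *Abca9* was lower in KO22 than in KO26 by 4.18 ± 0.209 on the log2 scale (-4.18, edgeR adjusted p = 1.02e-06). *Abca8b* differed by -1.61 ± 0.373 (edgeR adjusted p = 0.00744), a value that dropped to -0.89 (edgeR adjusted p = 0.158) without the KO26 library 9262-SB-6. *Abca1* was higher in KO22 by 1.6 ± 0.345 (edgeR adjusted p = 0.00506). Without 8995-SB-2 that difference was 0.94 (edgeR adjusted p = 0.000198), under the fold limit, and without 8995-SB-3 it was 1.31 (edgeR adjusted p = 0.0599). *Nr1h2* was lower in KO22 by the adjusted p (-0.63 ± 0.175, edgeR adjusted p = 0.0173). *Abca6* differed by 0.28 (95% interval -0.57 to 1.13), and *Apoe* by 0.09 with a wide interval of -1.45 to 1.63. Without 8995-SB-2 the difference of *Apoe* reversed to -1.36 (edgeR adjusted p = 0.0118). The lncRNA *Gm11697*, on the strand opposite to *Abca8b* and inside it, differed between the lines in the same direction (-2.42, edgeR adjusted p = 0.00476). The library kit keeps strand, but the strand setting of the counting is not given in the sources used here, so reads of both genes cannot be told apart with certainty.

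**Figure D4:**
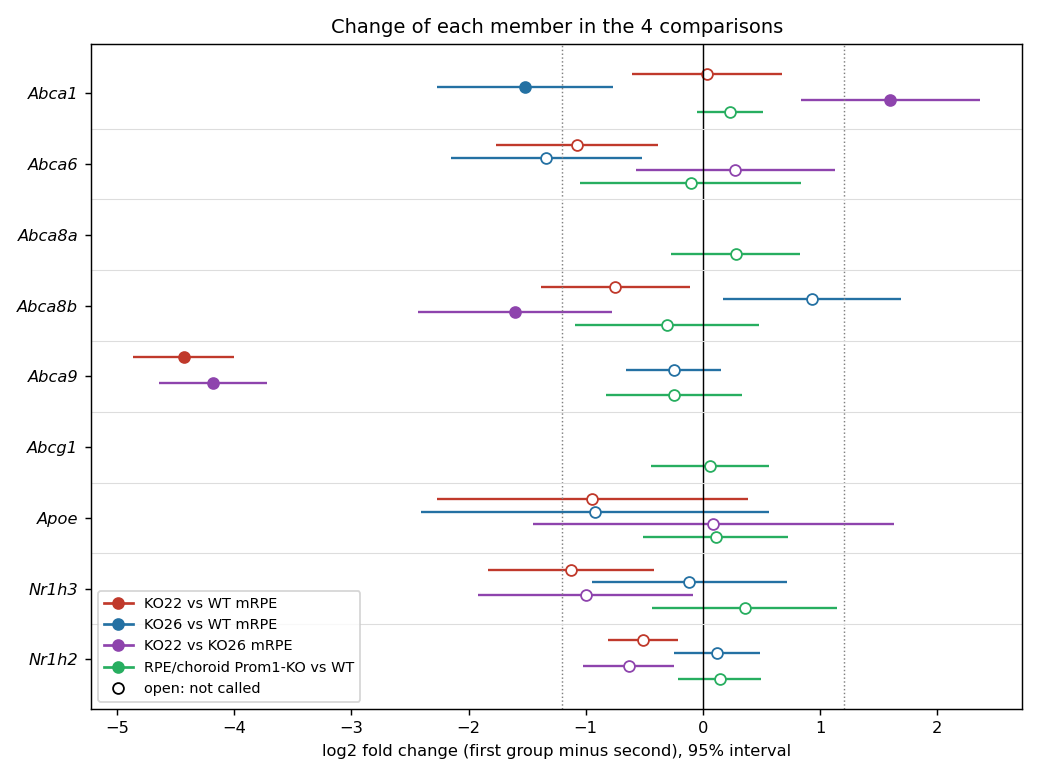
Log2 fold change (horizontal axis, with its 95% interval) of each member in KO22 against WT, KO26 against WT, KO22 against KO26, and RPE/choroid *Prom1*-KO against WT. Filled points passed both limits, and dotted lines mark a log2 fold change of 1.2 in either direction. *Abca9* at -4.43 and -4.18 is far outside the rest, and all 9 RPE/choroid values lie between -0.31 and 0.36.

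The wider pathway in KO22 was read from lists of related genes, with 11.4% of all genes tested higher and 13.8% lower past both limits. Among other ABCA and ABCG transporters, 1 of 7 tested rose (*Abca5*) and 3 fell. *Abcg2*, a multidrug and urate exporter and the most abundant of the list at 95.5 ± 6.93 CPM in WT (n = 4), was at 25.2 ± 6.63 CPM in KO22 (log2 fold change -1.92, edgeR adjusted p = 1.36e-05). *Abca4*, which moves retinoid lipid adducts in photoreceptors, was near the floor at 1 to 5 counts in KO22 (-2.36, edgeR adjusted p = 0.00259), and *Abcg4* at 4 to 13 (-1.44, edgeR adjusted p = 0.0223). The median of the list was -0.8.

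Other LXR targets and the LXR partners moved in both directions. Of 11 other LXR targets tested, 0 rose and 1 fell by edgeR's test with both limits, while the adjusted p alone was passed by 4 higher and 3 lower, beside 53% of all genes in either direction. The gene that fell was *Mylip*, a ubiquitin ligase, from 11.5 ± 0.664 to 4.8 ± 0.786 CPM (-1.25, edgeR adjusted p = 0.000253). *Scd2*, a fatty acid desaturase and the most abundant of the list, was at 360.9 ± 237.8 CPM in WT and 286.6 ± 74.6 in KO22. The list's median log2 fold change was 0.04. Among 14 RXR partners and coregulators tested, *Ncoa1*, a coactivator of nuclear receptors, fell from 62.6 ± 4.04 to 20.2 ± 1.88 CPM (-1.63, edgeR adjusted p = 7.36e-06) and none rose past both limits. By the adjusted p alone, 5 of the 14 were higher and 5 lower, with a median of 0.05. *Ncor1*, a corepressor, was the most abundant gene of that list.

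Sterol handling genes moved in both directions. Of 6 oxysterol enzymes tested, *Cyp7b1*, which clears oxysterols, rose from 0.556 ± 0.411 to 18.7 ± 5.35 CPM (5.21, edgeR adjusted p = 2.86e-05), and none fell past both limits. *Cyp39a1* had the highest level of that list. Of 18 apolipoproteins, assembly factors and receptors tested, 4 rose and 3 fell. The receptors *Olr1* (4.79, edgeR adjusted p = 1.73e-05), *Apobr* (3.04) and *Lrp8* (3.21), which binds apolipoprotein E, were among those that rose. The lipid carriers *Apod* (-4, edgeR adjusted p = 7.54e-05) and *Clu* (-1.86, edgeR adjusted p = 4.63e-05) and the endocytic receptor *Lrp2* (-2.1) fell, and *Lrp1* was the most abundant of the list. Of 15 genes of cholesterol storage and lysosomal egress, *Soat2*, which esterifies cholesterol, rose from 2 to 5 counts in WT to 11 to 27 (2.46, edgeR adjusted p = 0.00138). *Gramd1c*, a sterol transporter, fell at 2 to 3 counts in KO22 (-2.01, edgeR adjusted p = 0.00954), and *Npc2* was the most abundant. The medians of these 3 lists were -0.27, -0.02 and -0.04. The tested list genes number 69 in KO22, where 15 passed both limits, beside 25.2% of all genes. In KO26, 0 of 70 did so by edgeR's test, beside 1.92% of all genes. There 11 (15.7%) had an unadjusted p under 0.05, beside 20.1% of all genes. In RPE/choroid, 0 of 77 passed both limits, beside 0.189% of all genes. Of these 77, 10 (13%) had an unadjusted p under 0.05, beside 8.3% of all genes. DESeq2 was not run on these lists.

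The RPE/choroid libraries show the same genes in tissue after *Prom1* deletion aimed at the RPE. *Prom1* itself was at 48.7, 49.5 and 53.3 CPM in WT and 49.9, 48.1 and 35.5 CPM in the libraries labelled *Prom1*-KO (log2 fold change -0.18 ± 0.158, edgeR adjusted p = 0.824). The groups overlap, so the label was not borne out by *Prom1* counts in this mixed tissue, and the libraries are named by their labels in what follows. The sum of 13 RPE markers was lower in the libraries labelled *Prom1*-KO, at 703 to 940 CPM against 2177 to 3131 in WT. Of the 13, 4 fell past both limits and 0 rose, beside 0.189% of all genes past both limits. *Rpe65*, the visual cycle isomerase of the RPE, fell from 256.9 ± 46.2 to 3.86 ± 2.48 CPM (n = 3 each, -6.06, edgeR adjusted p = 0.0191). *Lrat* (-3.43), *Rdh5* (-2.1) and *Rgr* (-5.23), other visual cycle genes, also fell. The means of *Tyr* (77.5 CPM in WT, 96.2 in *Prom1*-KO) and *Mlana* (48.6 and 50.7) were not lower. Those of *Tyrp1* (344.7 and 309.5) and *Pmel* (173.5 and 156) were little lower. Photoreceptor markers ranged from 43 to 1187 CPM within WT and from 22.1 to 576 within the libraries labelled *Prom1*-KO. In bulk tissue, fewer cells of a type and less RNA per cell cannot be told apart.

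Beside that fall in the RPE marker sum, 0 of 9 members passed both limits or an unadjusted p under 0.05 by edgeR's test. DESeq2's own test also called 0. Over all 24926 genes tested, 0.189% passed both limits and 8.3% the unadjusted p, so 0 of 9 is close to the background. *Apoe* was at 377.6, 297.9 and 217.8 CPM in WT and 352.9, 376 and 234 CPM in the libraries labelled *Prom1*-KO. The groups overlapped fully, and the log2 fold change was 0.11 ± 0.263 (95% interval -0.51 to 0.72, edgeR adjusted p = 0.951). *Apoe* is also a glial transcript, and the 6 other Müller glia and astrocyte markers summed to 232 to 403 CPM in WT and 357 to 554 in the libraries labelled *Prom1*-KO, whose part was not tested. Mean CPM in WT and *Prom1*-KO was 189.6 and 240.4 for *Glul*, 112.8 and 181.9 for *Dkk3*, and 6.35 and 17.7 for *Aqp4*. For *Slc1a3* it was 5.36 and 22, for *Kcnj10* 1.13 and 4.73, and for *Gfap* 0.619 and 10.8. With *Apoe*, 0 of the 7 genes of this list passed both limits. Macrophage and microglia markers, 12 genes, summed to 315 to 397 CPM and 271 to 368 CPM.

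*Abca1* was at 35.9, 41.2 and 37.6 CPM in WT and 47.9, 42.4 and 44.4 CPM in the libraries labelled *Prom1*-KO. The groups did not overlap, yet the difference was small (0.23 ± 0.121, 95% interval -0.05 to 0.52, edgeR adjusted p = 0.687). *Abcg1* was at 5.37, 5.68 and 6.41 CPM in WT and 6.99, 6.94 and 4.21 CPM in the libraries labelled *Prom1*-KO, with the lowest value in 12965-SB-06 (0.06 ± 0.216, edgeR adjusted p = 0.968). *Nr1h2* was at 7.75 to 9.62 CPM in WT and 8.68 to 10.7 in the libraries labelled *Prom1*-KO, and *Nr1h3* at 0.67 to 1.28 and 1.13 to 1.79. The 4 cluster members had wide ranges within WT, and in each of them the WT library 12965-SB-01 was the lowest of all. *Abca9* was at 9.64, 18.4 and 14.8 CPM in WT and 11, 10.7 and 14.4 in the libraries labelled *Prom1*-KO (-0.25 ± 0.248, 95% interval -0.83 to 0.33, edgeR adjusted p = 0.855). *Abca8a* ranged over 10.8 to 20.3 CPM in WT and 17.2 to 21.4 in the libraries labelled *Prom1*-KO, *Abca8b* over 5.68 to 13.5 and 7.39 to 10.9, and *Abca6* over 1.68 to 4.59 and 2.42 to 4.41. The tissue interval for *Abca9* does not reach the KO22 value of -4.43, but it holds for the mixed tissue as a whole. It cannot show how *Abca9* changed within the RPE cells, at which the deletion was aimed. The members' median log2 fold change in tissue was 0.11, beside 0.01 over all genes.

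**Figure D5:**
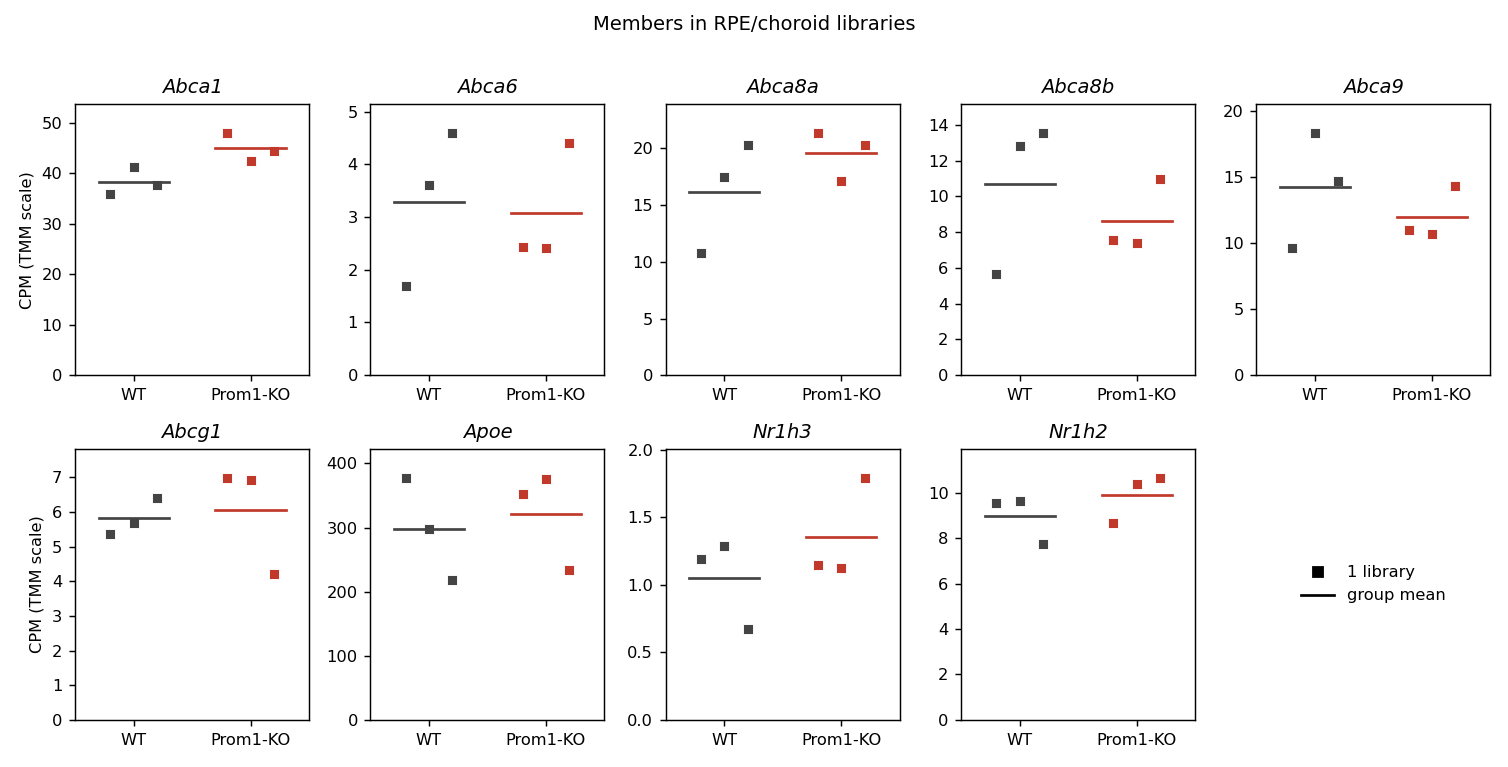
CPM on the TMM scale of the 9 members in each RPE/choroid library, WT and labelled *Prom1*-KO, with a line at the group mean. The groups overlap for every member except *Abca1*, whose 3 libraries labelled *Prom1*-KO (42.4 to 47.9) lie above the WT libraries (35.9 to 41.2).

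Transcripts with the most similar pattern were sought over the 9 mRPE libraries, by Pearson's r of log2 CPM centred within each library prefix. The 9 points share libraries and groups, and the genes named are the extremes of all genes tested, so r is a description. The mean of *Abca6*, *Abca8b* and *Abca9* went most closely with *Hacd4* (r = 0.998), *Wdr19*, *Ccdc152*, *Kifap3* and *Add3*, and most against *Rbpms2* (r = -0.998), *Cdv3*, *Mfsd2a*, *Inpp4b* and *Hmga1*. *Ccdc152* was at a mean 100 CPM in WT, 4.56 in KO22 and 67.5 in KO26, an order like that of *Abca9*. *Abca1* went with *Hectd2* (r = 0.988), *Gm22657*, *Cfp*, *Ldhd* and *Nr6a1*, and against *Foxk1* (r = -0.981), *Alkbh4*, *Ascl4*, *Dok1* and *Dera*. *Apoe* went with *Gm18237* (r = 0.983), *Arl9*, *4930544F09Rik*, *Plpp3* and *G730003C15Rik*, and against *Hnrnpa0* (r = -0.995), *Socs5*, *Coq3*, *Rps2-ps10* and *Hsd17b7*. *Plpp3*, a lipid phosphate phosphatase, was at 88.7 CPM in WT, 54.5 in KO22 and 56.3 in KO26. Some of the genes named lay near the floor. *Gm22657* was at a mean 0.286, 0.318 and 0.0578 CPM in WT, KO22 and KO26, and *Mfsd2a* at 0.00993, 2.47 and 0.0696 CPM.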

How the data were processed

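RNA-seq of 9 mRPE and 6 RPE/choroid libraries was analysed. The authors trimmed reads with Trim Galore 0.6.7, aligned them to mm39 with STAR, took gene counts and left out genes with low counts, and the deposited raw counts per gene and library were used as they are. The authors' normalized tables, made with DESeq2 1.42.0, are these counts divided by a size factor per library and were not used. The annotation release and strand setting are not given in the sources used here. Groups were taken from the sample labels. Tests ran in R 4.3.3. The main one was edgeR 4.0.16 (quasi-likelihood, TMM), for genes that reached 5 counts in 3 or more libraries, with p adjusted by Benjamini-Hochberg over all genes tested and a gene called where the adjusted p was below 0.05 and the log2 fold change beyond 1.2 in either direction. The library prefix was a term for mRPE, and KO22 against WT used 7 libraries. Standard errors are the absolute log2 fold change over the square root of F. Within-prefix ratios and correlations used a pseudocount of 0.5 CPM. Exon lengths and positions came from GENCODE vM39, matched by Ensembl ID. The code was tested on simulated data. Members and gene lists were chosen with earlier results of these data known. Genes were named outside the set where a pathway list held them past both limits in KO22 or RPE/choroid (up to 5 a direction) or the RPE markers did so in RPE/choroid, as the most abundant of a pathway list, within 1 Mb of the cluster, or by correlation. Otherwise, of the cell type lists only summed levels and counts of genes called are given, beside single genes picked after their values were seen. *Ch25h* and the neighbours described singly were picked in the same way. Other settings tried were DESeq2's size factors and test, other filters, fits over other libraries, no batch term, other fold limits and each library left out. Within-prefix ratios and the scale of nuclear-encoded counts were chosen after seeing the data. A gene that this rule names is not reported here.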

Additional observations from a re-analysis of the deposited data

Results flagged for a closer look

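In WT mRPE, *Abca6* in 8995-SB-1 (3.38 CPM) lay apart from the other 3 libraries (6.19 to 6.6 CPM), with a gap to the nearest of them of 0.871 of the group's range, past Dixon's 95% critical value for 4 samples. Among like libraries, chance alone marks about 1 in 20 groups in this way, and 1 of the 8 genes looked at was marked. 8995-SB-1 is the only WT library of its prefix, so that rate need not hold here. The levels of 5 genes differed between the KO22 and KO26 lines by edgeR's test of the difference at an adjusted p under 0.05. The log2 differences, KO22 minus KO26, were 1.6 for *Abca1* (edgeR adjusted p = 0.00506), -1.61 for *Abca8b* (0.00744), -4.18 for *Abca9* (1.02e-06), -0.63 for *Nr1h2* (0.0173) and 2.35 for *Abca5* (0.00164).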

How the results depend on the processing

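Of 407 fitted values of members under other settings, 381 kept their side of the limits, 11 lost the call, 14 gained it and 1 reversed. *Abca9* passed both limits in KO22 under every setting fitted. For KO22 against WT, the number of members called was 1 as reported, 2 with edgeR's filterByExpr (*Abca9* and *Nr1h3*), 5 with no fold limit, 3 with a log2 limit of 1, 3 with prefix 9262 only (*Abca6*, *Abca9* and *Apoe*) and 1 to 3 with a library left out. Over all genes, no fold limit gave 10837 calls against 5154. For KO26 against WT, 2 members were called by DESeq2's own test and by the WT and KO26 libraries alone (*Abca1* and *Abca6*), 0 with no batch term and 0 to 2 with a library left out. Calls over all genes were 399, and 629 by DESeq2's own test, 194 with no batch term, 725 with no fold limit, 818 with the WT and KO26 libraries alone, and 114 to 878 with a library left out. Between the lines, calls over all genes were 3797, 7132 with no fold limit and 2336 with those libraries alone, where *Abca8b* lost its call. The difference of *Apoe* between the lines was -1.36 to 0.74 with a library left out, and reversed at -1.36 without 8995-SB-2. In RPE/choroid 0 members were called under every setting, and genes called numbered 47, 273 by DESeq2's own test and 9 to 40 with a library left out. Where 8995-SB-1 or 8995-SB-2 is left out for KO22, the remaining 8995 library is taken up by the prefix term, so those fits rest on prefix 9262. Other causes were not tested. With the longest transcript as length, the order of levels per kilobase changes: *Nr1h2* passes *Abca1* in both RPE/choroid groups, *Abca8a* too in those labelled *Prom1*-KO, and *Abca9* in KO26, and *Nr1h3* passes *Abca6* in WT mRPE, KO22 and the RPE/choroid libraries labelled *Prom1*-KO. Low counts limit *Apoe* and *Nr1h3* in mRPE, and KO26 has 2 libraries. No paired analysis was possible because the labels give no replicate numbers that the groups share.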

Other observations

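Medians over the chromosomes that hold members differed in KO22. There the median log2 fold change was -0.32 over 1452 tested genes of chromosome 7, which holds *Apoe* and *Nr1h2*, 0.26 over 1071 genes of chromosome 4, which holds *Abca1*, and -0.03 over 1455 genes of chromosome 11, which holds the ABCA cluster, beside -0.03 over all genes. In KO26 against WT, these medians were 0.1, 0.08 and 0.11, beside 0.03.

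Outside the set, *Ch25h*, which makes an oxysterol that binds LXR, was at 0.567 ± 0.288 CPM in WT RPE/choroid and 2.11 ± 0.515 CPM in the libraries labelled *Prom1*-KO (n = 3 each). Its log2 fold change of 1.89 ± 0.401 did not pass (edgeR adjusted p = 0.196), and it was picked after its values were seen.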
